A study of Mus musculus with 4 samples.

Results

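The peaks described here are Gata4 ChIP peaks of Flk1(+) mesoderm cells at positions where undifferentiated ES cells already gave a high ChIP signal. Members were chosen by their background height alone. Each was taken from a deposited peak list because this value, the height of the ES cell profile at the peak, was 5 or more in the units of that list, and was counted once by its peak number. The WT list held 647 such peaks among 20410, which is 3.17% of the list. The DKO list held 285 among 22733, or 1.25%. Together they made 932 of 43143 peaks, and chaining positions within 500 bp of each other placed them at 822 loci, of which 93 held members of both lists, 544 held WT members alone and 185 held DKO members alone.

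The study used chromatin immunoprecipitation followed by sequencing (ChIP-seq) to map a drug-inducible Gata4 in mouse cells with and without the *de novo* DNA methyltransferases Dnmt3a and Dnmt3b. In Gata4GR, expressed from a CAG promoter, Gata4 is joined to the hormone-binding part of human glucocorticoid receptor, and dexamethasone (Dex) activates it. There were 4 libraries, 1 per group, so no difference between groups had a replicate check. WT Flk1(+) and DKO (Dnmt3a-/-Dnmt3b-/-) Flk1(+) cells came from J1-derived ES cells of 129 background on OP9 stroma at day 4.5. The cultures received 100 nM Dex for 3 h, and the Flk1(+) cells were then sorted with magnetic beads. The WT ES and DKO ES controls were undifferentiated and had no Dex, but by the account of the study they too expressed Gata4GR. The Flk1(+) cells of each genotype came from 1 clone that stably carried Gata4GR, and a mix of Gata4 antibodies was used, so the peaks do not separate Gata4GR from endogenous Gata4, which by the account of the study was expressed in Flk1(+) cells. Neither the deletion nor the Flk1 sort could be checked from peak lists. Clone, genotype and library cannot be told apart in any comparison of WT with DKO, and in a bulk profile a lower height cannot tell fewer bound cells from weaker binding per cell.

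Gata4 is a zinc finger transcription factor that binds the core sequence GATA, most strongly within AGATAA or TGATAA, and it acts in early endoderm and in heart mesoderm. Distal enhancers usually hold few CpG dinucleotides, whereas most promoters of widely expressed genes lie in CpG islands. Promoters of genes that act in G2 and mitosis commonly carry CCAAT boxes, the site of NF-Y, and a TTTGAA element known as the cell cycle genes homology region. ChIP signal in a control library marks positions that are recovered without the treatment under study.

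The sequences below are examples of members, and all were read from the plus strand of mm9 in the deposited windows. The first set holds the central 121 bases of members outside promoters, with AGATAA or TGATAA on either strand in capitals, so that TTATCT or TTATCA marks a match read from the other side. They were chosen among the members with the highest heights or backgrounds.
WT member of *Cd59a*, chr2:103938774-103938894: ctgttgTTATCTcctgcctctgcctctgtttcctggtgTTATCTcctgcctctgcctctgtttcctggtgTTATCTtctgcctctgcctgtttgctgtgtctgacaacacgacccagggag
WT member of *Lhx1*, chr11:84406577-84406697: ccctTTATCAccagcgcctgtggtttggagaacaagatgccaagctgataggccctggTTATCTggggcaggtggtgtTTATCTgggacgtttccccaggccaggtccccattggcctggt
WT member of *Shroom3*, chr5:93317806-93317926: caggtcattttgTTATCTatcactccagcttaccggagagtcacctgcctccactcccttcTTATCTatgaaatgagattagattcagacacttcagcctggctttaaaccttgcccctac
WT member of *Sept9*, chr11:117197660-117197780: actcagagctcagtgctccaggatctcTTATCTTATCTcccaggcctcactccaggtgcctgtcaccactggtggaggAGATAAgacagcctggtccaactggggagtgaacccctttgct
DKO member of *Wsb1*, chr11:79027713-79027833: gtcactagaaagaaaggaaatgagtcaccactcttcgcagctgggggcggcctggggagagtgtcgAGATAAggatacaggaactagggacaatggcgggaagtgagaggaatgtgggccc
The second set holds the central 151 bases of DKO members at promoters, chosen because 3 of these genes act in mitosis and the peaks lay just upstream of the annotated starts. All of these windows hold CCAAT, so they are not typical of the promoter members. Within 100 bp of the peak position, 33.2% of DKO promoter members held CCAAT and 16.4% held TTTGAA. The highest DKO member at a mitotic gene, that of *Cdca2*, held neither there. Capitals mark CCAAT or TTTGAA on either strand, so that ATTGG and TTCAAA are the same elements read from the other side. Where CCAAT and ATTGG overlap they form 1 run of capitals.
DKO member of *Ect2*, chr3:27052810-27052960: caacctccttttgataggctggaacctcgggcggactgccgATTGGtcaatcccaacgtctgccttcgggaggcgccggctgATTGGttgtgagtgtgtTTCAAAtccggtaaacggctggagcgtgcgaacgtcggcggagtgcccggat
DKO member of *Ube2c*, chr2:164595216-164595366: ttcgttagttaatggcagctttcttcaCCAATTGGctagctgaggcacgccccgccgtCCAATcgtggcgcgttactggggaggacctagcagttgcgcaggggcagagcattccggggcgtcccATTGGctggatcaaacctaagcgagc
DKO member of *Top2a*, chr11:98885541-98885691: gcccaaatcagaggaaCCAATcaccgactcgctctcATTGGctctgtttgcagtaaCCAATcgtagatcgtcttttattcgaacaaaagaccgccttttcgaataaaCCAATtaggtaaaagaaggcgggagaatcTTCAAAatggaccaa
DKO member of *Got1*, chr19:43599088-43599238: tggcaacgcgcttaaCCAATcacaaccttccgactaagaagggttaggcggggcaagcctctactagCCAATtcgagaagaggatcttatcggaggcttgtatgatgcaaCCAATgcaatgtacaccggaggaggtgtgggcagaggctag
The *Cd59a* window held its 3 central matches in a short repeated unit, and the *Sept9* window held 2 overlapping matches near another. A match describes the letters of a window and is not evidence of binding.

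The rule used the background height, and through the authors' minimum enrichment of 3 it also required a high peak. The smallest height was 15.1 among WT members and 15.3 among DKO members. Among peaks of height 15 or more, 24.2% of 2670 WT peaks and 20.9% of 1362 DKO peaks were members, and the other 2023 WT and 1077 DKO peaks of that height, with a background under 5, are called tall low-background peaks and serve as the comparison. Members were the taller, with a median height of 25.3 against 18.8 in WT and of 21.9 against 17.7 in DKO. The median background of members was 6.30 in WT and 5.85 in DKO. These values describe the choice and are not a result. Enrichment, the height divided by the background, was below 4 for 57.2% of WT and 69.8% of DKO members, so most members lay close to the authors' limit of 3. An enrichment of 10 or more was found for 10 WT members and for 1 DKO member. A background of 10 or more was reached by 56 WT members and 16 DKO members.

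Members just inside the threshold in WT were the promoter peak of *Znhit3* and a distal peak nearest to *Dmrta2*, both with a background of 5.003. Just outside it lay the promoter peaks of *AW549877*, *Ccdc110* and *Ddx19a*, with backgrounds of 4.992, 4.99 and 4.989. In DKO, promoter peaks of *Cycs*, *Dpy30* and *Mthfd2* lay just inside at 5.009, 5.01 and 5.012, and those of *Pcmt1* and *Imp3* just outside at 4.986 and 4.983. The threshold therefore divided a continuous range of backgrounds.

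**Figure D1:**
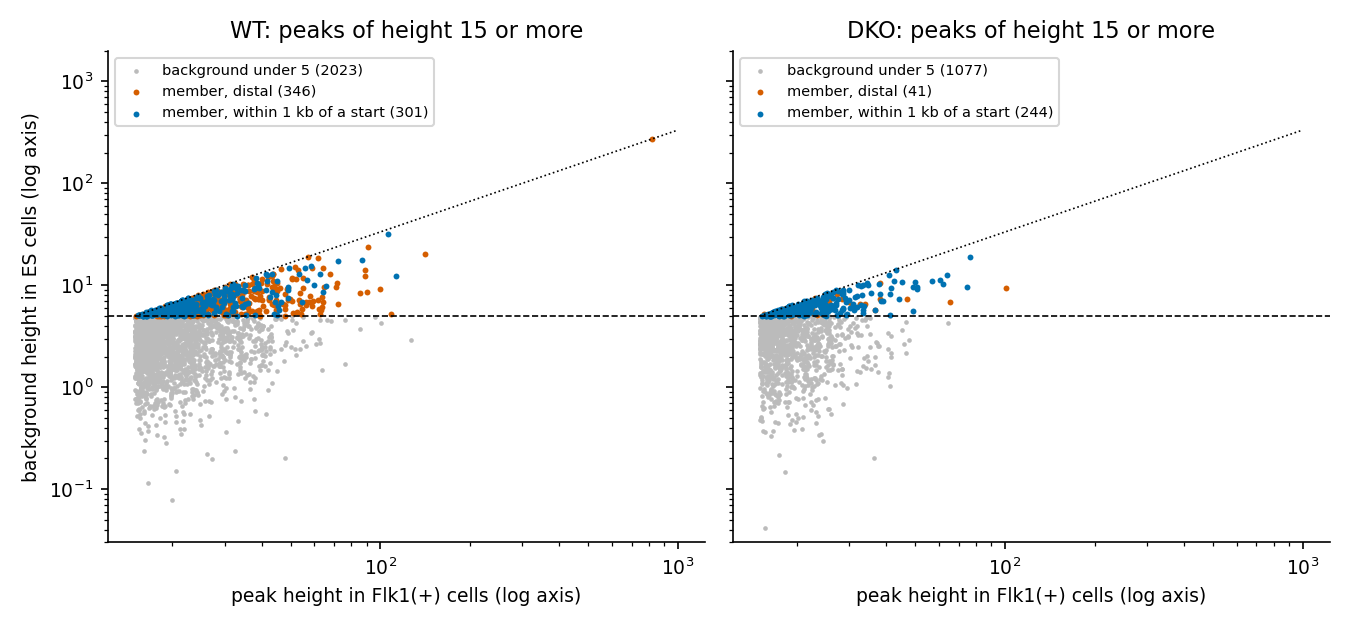
ES background height against Flk1(+) peak height, both on log axes, for every peak of height 15 or more in the WT list (left) and the DKO list (right). The dashed line marks a background of 5, the dotted line an enrichment of 3, and colours separate distal members (346 WT, 41 DKO) from members within 1 kb of a start (301 WT, 244 DKO). The isolated WT point at a height of 816 is the chromosome M peak.

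WT and DKO members differed in where they lay. Of the WT members, 301 of 647 (46.5%, 95% Wilson interval 42.7 to 50.4) lay within 1 kb of the start of a protein-coding transcript, here called promoter members. Of the DKO members, 244 of 285 did (85.6%, 81.1 to 89.2). The same share over all peaks was 27.9% in WT and 49.9% in DKO, and among tall low-background peaks it was 22.7% and 50.3%, so promoters were more frequent among members than in either comparison in both lists. Promoter members sat close to the start, at a median of 49 bp upstream in WT and 38.5 bp upstream in DKO, and 70.8% of them in WT and 59.4% in DKO lay on the upstream side. Tall low-background promoter peaks sat much alike, at medians of 53 bp upstream in WT and 37.5 bp upstream in DKO. All promoter peaks had medians of 36 bp upstream in WT and 12 bp downstream in DKO. The upstream share was counted for members alone. By annotation 28.9% of WT and 36.1% of DKO promoter members were exonic. So were 26.4% and 34.3% of tall low-background promoter peaks and 30.6% and 37.7% of all promoter peaks. All intervals given here cover counting error over peaks only.

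The 346 WT members farther than 1 kb from any start, here called distal, lay in introns in 44.8% and between genes in 53.5% of cases, close to the 43.1% and 54.9% of all WT distal peaks. Exons held 5 of them. Members at distances of 5 to 50 kb numbered 193 and those beyond 50 kb numbered 95. The DKO list held 41 distal members, 15 of them in introns and 3 in exons, and 5 lay beyond 50 kb. Few DKO members were thus of the distal kind that made up most of the WT members.

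**Figure D2:**
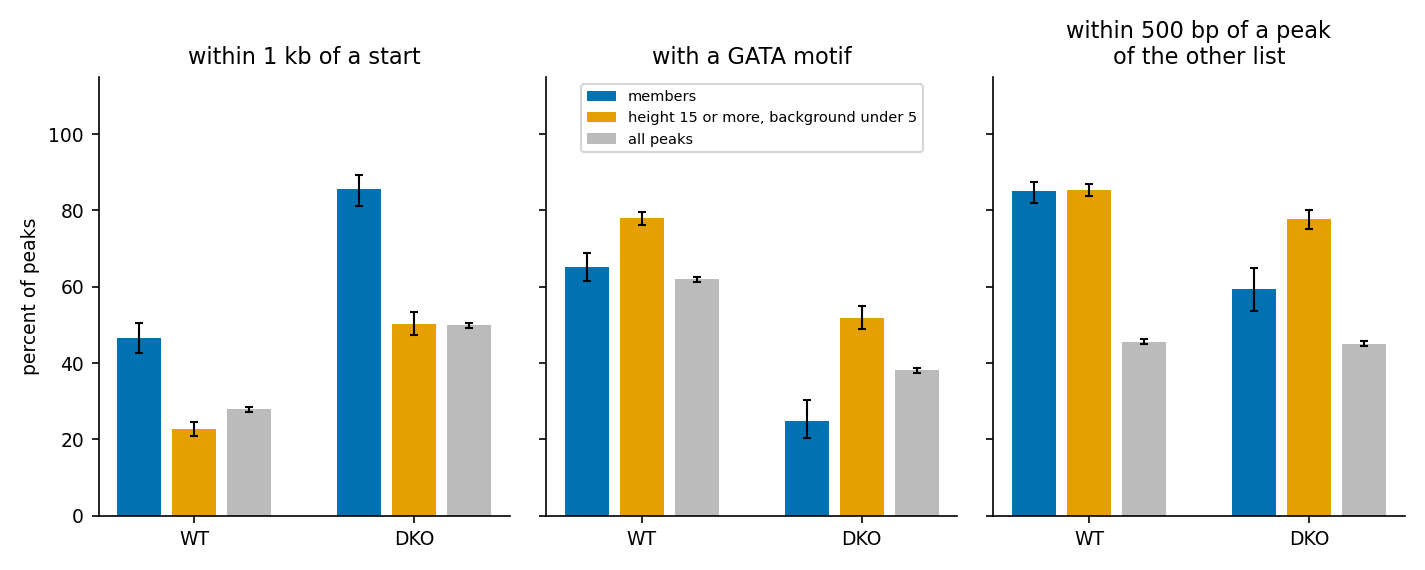
Percent of peaks within 1 kb of a transcript start, with AGATAA or TGATAA in the peak window (250 bp to either side of the position), and within 500 bp of a peak of the other list, for members, tall low-background peaks and all peaks of each list. Bars show the share and whiskers the 95% Wilson interval. DKO members stand at 85.6% for starts and 24.9% for the GATA motif, against 46.5% and 65.2% for WT members.

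CpG content and the GATA motif divided the WT members in the same way. The median WT member held 16 CpG dinucleotides in its window, which spans 250 bp to either side of the peak position, but few windows lay near that value: 309 held at most 14, 54 held 15 to 24 and 284 held 25 or more. All WT peaks had a median of 8 CpG and WT tall low-background peaks one of 7. AGATAA or TGATAA on either strand was present in 95.8% of the CpG-poor class, 74.1% of the middle class and 30.3% of the CpG-rich class, while the share at promoters was 4.85%, 44.4% and 92.3%. The DKO members were nearly all of the last kind, with 26, 8 and 251 windows in these classes and a median of 41 CpG, against 21 over all DKO peaks and 22 over DKO tall low-background peaks. Their GATA shares were 92.3%, 62.5% and 16.7%. Both lists thus held a CpG-poor class with the motif and a CpG-rich class mostly without it, in different proportions. Split by place, the CpG medians of members lay nearer to those of other peaks. Within 1 kb of a start they were 39 for members, 37 for tall low-background and 36 for all peaks in WT. In DKO they were 42.5, 42 and 37. Farther from starts they were 6, 5 and 6 in WT and 12, 7 and 7 in DKO.

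**Figure D3:**
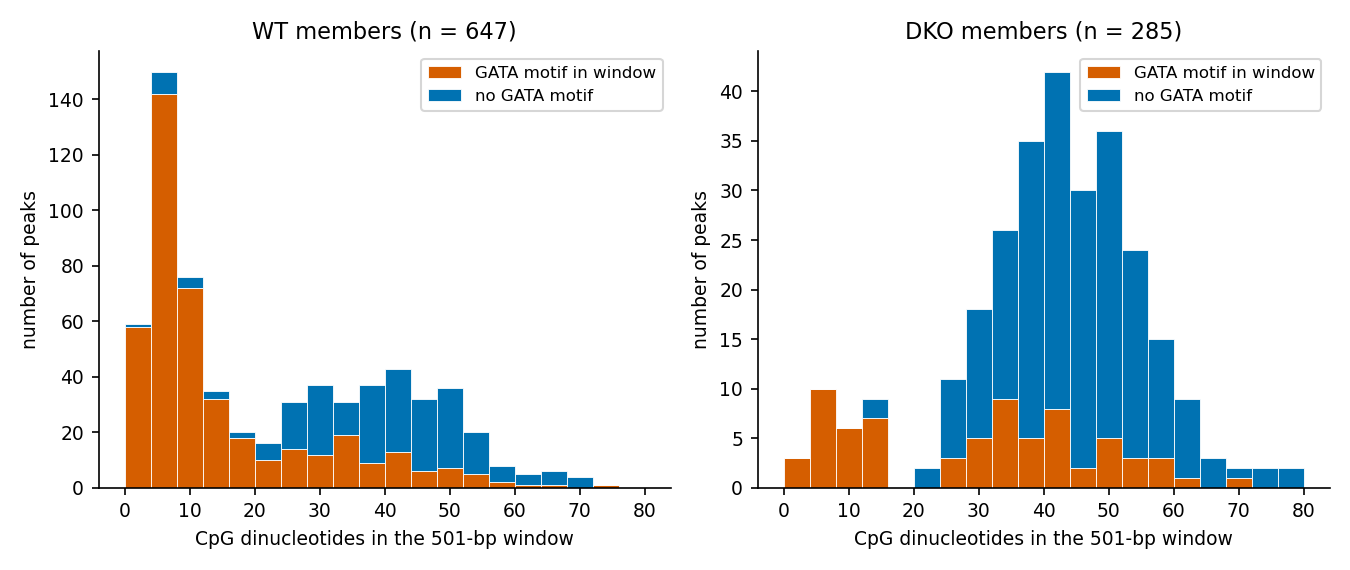
Number of members by CpG count of the window (250 bp to either side) in WT (left, n = 647) and DKO (right, n = 285), stacked by whether AGATAA or TGATAA was present on either strand. WT members form a CpG-poor group with the motif and a CpG-rich group mostly without it, and DKO members lie mostly in the second.

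Over all members the GATA motif was found in 65.2% of WT windows (61.5 to 68.8) and 24.9% of DKO windows (20.2 to 30.2). The share in all peak windows was 61.9% in WT, close to the value of the members, and 38.1% in DKO, above it. Windows 2 kb to either side of the members held the motif in 39.4% of cases in WT and 41.2% in DKO. Split by place, 92.5% of WT distal members (89.2 to 94.8) and 33.9% of WT promoter members carried the motif, against 91.6% and 31.4% of tall low-background peaks, so within a place WT members and other tall peaks differed by less than the counting error. In DKO, 18.0% of promoter members and 27 of 41 distal members (65.9%, 50.5 to 78.4) had it, against 16.2% and 88.0% of tall low-background peaks. Of these 4 classes, the DKO distal members were the one in which the intervals of members and tall low-background peaks did not overlap. The upper quartile of CpG was 41 in DKO distal members, against 10 in DKO tall low-background distal peaks and in WT distal members. DKO distal members thus included CpG-rich windows, the class with a low GATA share. Whether this accounts for the difference was not tested.

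Repeated matches differed between the distal members of the lists. In WT, 69.7% of distal members held 2 or more matches, compared with 63.4% of tall low-background distal peaks and 42.1% of all distal peaks. In DKO, 18 of 41 distal members (43.9%, 29.9 to 59.0) did, below the 65.6% of tall low-background distal peaks and above the 32.8% of all distal peaks. The CpG-rich windows among the DKO distal members are part of this count. Of 776 matches in WT distal members, 56.1% lay within 50 bp of the peak position, against 53.0% in tall low-background and 47.3% in all WT distal peaks. Of 130 matches in WT promoter members 35.4% did, close to the 34.0% in all WT promoter peaks and below the 46.6% in tall low-background ones. In DKO 39 of 65 matches in distal members did (60%, 47.9 to 71.0). The share was 53.0% in tall low-background and 44.8% in all DKO distal peaks. Of 52 matches in DKO promoter members 19 did (36.5%, 24.8 to 50.1). The share was 41.7% in tall low-background and 26.4% in all DKO promoter peaks.

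**Figure D4:**
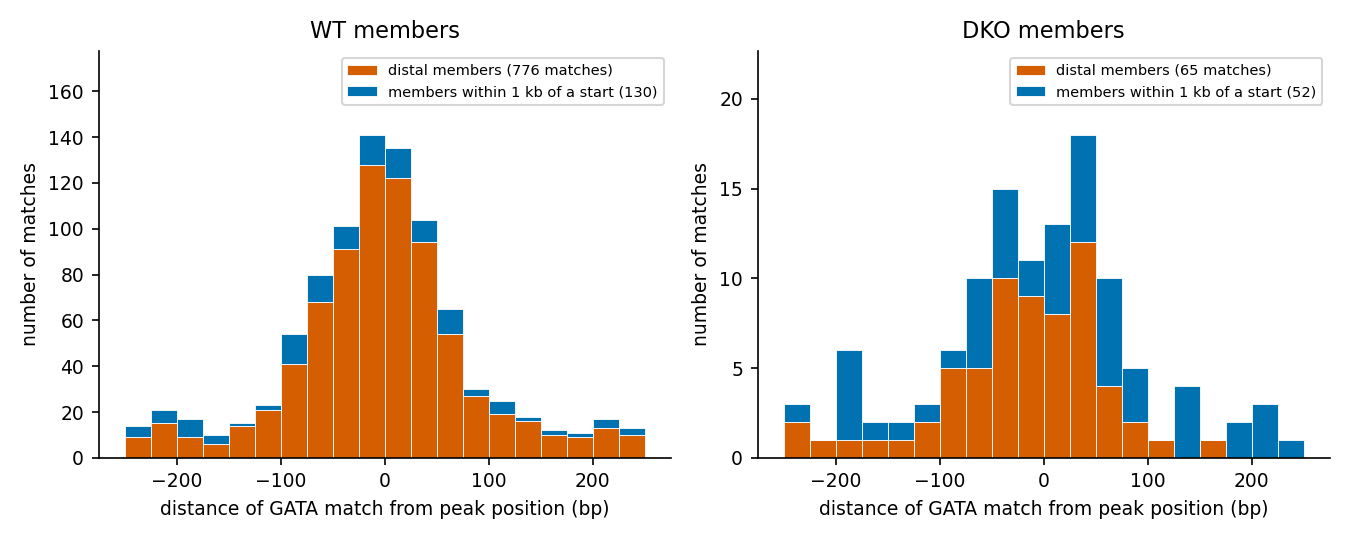
Distance of each AGATAA or TGATAA match from the peak position, in base pairs, for WT members (left) and DKO members (right), stacked by place. Matches in distal members (776 WT, 65 DKO) pile up within 100 bp of the peak position, and those in promoter members (130 and 52) are spread more widely.

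The distal members with the highest backgrounds were tall in both lists. In an intron of *Cd59a*, which encodes an inhibitor of the complement membrane attack complex, the peak 2876 bp downstream of the start had a height of 142 over a background of 20.4 in WT and of 100.98 over 9.47 in DKO. It was the highest member of either list on a nuclear chromosome and a member in both. A peak 67714 bp upstream of *Lhx1*, a LIM homeobox transcription factor of early mesoderm, reached 91.2 over 23.97 in WT and 47.0 over 7.37 in DKO. In both pairs the DKO height was below the WT height, and the DKO background was below the WT background by a larger factor.

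Other distal members crossed the threshold in WT alone. At *Shroom3*, which encodes an actin-binding protein that drives apical constriction, the intronic peak had a height of 62.0 over a background of 18.6 in WT and of 28.4 over 3.33 in DKO. The intronic peak of *Sept9*, a septin cytoskeletal GTPase, had the highest enrichment of any member, 20.8, from a height of 109 over 5.25 in WT, and it had 25.03 over 1.805 in DKO. Enrichments above 10 were also found for peaks of *Sync* (62.7 over 5.25 in WT, 14.5 over 1.36 in DKO), *Sez6* (72.3 over 6.60, and 20.4 over 3.797) and *Plekha6* (99.5 over 9.30, and 37.2 over 2.72). *Zfpm1*, whose product FOG1 is a cofactor of GATA factors, held 2 WT members in introns, with heights of 47.9 and 24.2 over backgrounds of 6.36 and 5.24. Their DKO partners had heights of 24.7 and 11.1 and backgrounds of 2.26 and 1.21. In an intron of *Meis1*, a homeobox transcription factor, a WT member of 64.5 over 14.7 had no DKO peak within 500 bp, the nearest lying 6091 bp away.

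The distal DKO members were fewer and lower. After *Cd59a*, the highest was a peak 40400 bp downstream of *Wsb1*, with 65.5 over 6.89 in DKO and 90.4 over 8.51 in WT, and it was a member in both lists. Its window held 15 CpG and a single GATA match. The median DKO distal member had a height of 22.7 and 12 CpG, against 29.1 and 6 CpG for WT distal members.

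Of the promoter members among the 8 highest backgrounds of either list, *Spty2d1* alone held AGATAA or TGATAA. The promoter of *Man1b1*, an endoplasmic reticulum mannosidase, had the highest background of the WT list outside chromosome M, 31.9 under a height of 106, and the nearest DKO peak lay 13473 bp away. *Got1*, the cytosolic aspartate aminotransferase, had the highest promoter peak, 113 over 12.4 in WT and 60.5 over 11.3 in DKO. *Spty2d1*, a histone chaperone gene, had the highest DKO background, 76.3 over 18.8 in DKO and 72.1 over 17.1 in WT. *Ttc32* had 87.0 over 17.5 in WT and 56.8 over 10.98 in DKO. Among these 3 shared promoters the DKO background was above the WT background at *Spty2d1* and below it at *Got1* and *Ttc32*.

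Genes that act in G2 and mitosis were frequent among promoter members of both lists. This list of genes was drawn up after the values were seen, so its counts describe the members and carry no test. Of 82 listed genes in the annotation, 23 had a WT member within 1 kb of a start (28.0%) and 32 had a DKO member (39.0%), against 348 (1.57%) and 284 (1.28%) of 22232 protein-coding genes. Counted only over genes with any peak there, 46.0% of 50 listed genes had a WT member against 6.67% of all genes, and 43.8% of 73 had a DKO member against 3.48%. A tall low-background peak lay there at 5 listed genes in WT and 28 in DKO, against 516 and 616 of all genes. In DKO the listed genes were thus frequent among other tall peaks too. Both lists held members at 14 of the genes: *Aurkb*, *Birc5*, *Cdca3*, *Cdca8*, *Cdk1*, *Hmgb2*, *Hmmr*, *Incenp*, *Kif18b*, *Kif2c*, *Kifc1*, *Racgap1*, *Top2a* and *Ttk*. WT members alone lay at 9, all of which had some DKO peak. DKO members alone lay at 18, of which 4 had any WT peak. The same split over all genes was not counted, so it is not read as particular to mitotic genes. Over all promoter members a peak of the other list lay within 500 bp of 89.4% in WT and 61.5% in DKO. Over all promoter peaks the shares were 72.6% and 45.2%. Any peak lay within 1 kb of a start at 5220 of all genes in WT and 8161 in DKO.

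At the shared mitotic promoters the DKO height was above the WT height for some genes and below it for others. *Cdca8*, which encodes the chromosomal passenger borealin, had 58.7 over 15.4 in WT and 63.8 over 12.6 in DKO. *Birc5*, encoding its partner survivin, had 53.3 over 12.8 in WT and 62.0 over 10.2 in DKO. *Top2a*, the mitotic topoisomerase, had 65.8 over 9.89 in WT and 50.6 over 9.56 in DKO. The kinase gene *Ttk* of the spindle checkpoint had 29.4 over 6.10 in WT and 41.0 over 5.13 in DKO, and the promoter of *Cdk1*, the mitotic kinase, had 32.7 over 9.34 and 30.9 over 6.06. *Racgap1*, whose product acts in cytokinesis, had 48.9 over 9.62 in WT and 29.9 over 8.96 in DKO, the largest shortfall in DKO among the shared mitotic promoters named here. For all of these both libraries of both genotypes gave signal at the same position, within 53 bp.

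Other mitotic promoters were in the DKO list and had no WT peak within 500 bp. *Cdca2*, which encodes a mitotic targeting subunit of protein phosphatase, had the third highest DKO member, 74.3 over 9.72, and the nearest WT peak lay 196380 bp away. *Cdca5*, encoding the cohesin factor sororin, had 49.7 over 10.8, and *Hjurp*, the chaperone of centromeric histone, had 49.0 over 9.61. *Ube2c*, a ubiquitin-conjugating enzyme of the anaphase-promoting complex, had 44.9 over 10.9, *Ect2*, an exchange factor of cytokinesis, had 42.5 over 10.9, and *Ccnb2*, a B-type cyclin, had 40.9 over 12.7. A WT height is not listed at a position that was not called, so these differences have no size.

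TTTGAA was found within 100 bp of the peak position in 18.6% of WT promoter members (14.6 to 23.4) and 16.4% of DKO promoter members (12.3 to 21.6). The share among all promoter peaks was 5.94% in WT and 5.12% in DKO, and over all peak windows 9.31% and 6.22%. Tall low-background promoters held it in 7.41% of cases in WT and 12.4% in DKO. CCAAT, searched in the same window on both strands, was found in 44.9% and 33.2% of promoter members, 31.7% and 23.6% of all promoter peaks, and 25.1% and 20.96% of all peak windows. Tall low-background promoters held CCAAT in 43.1% of cases in WT, close to the members, and in 38.7% in DKO, above them. Both elements together occurred in 10.96% of WT and 10.7% of DKO promoter members, against 3.70% and 6.46% of tall low-background promoters and 2.23% and 1.81% of all promoter peaks. TTTGAA was picked after the mitotic genes had been seen among the members, and its share is likewise a description.

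WT members were shared with the DKO list more often than DKO members with the WT list. A DKO peak lay within 500 bp of 85.0% of WT members (82.1 to 87.6), and a WT peak lay within 500 bp of 59.3% of DKO members (53.5 to 64.8). The share over all peaks was 45.6% in WT and 45.1% in DKO. Among tall low-background peaks it was 85.3% and 77.7%, and among those of height 20 or more it was 92.5% and 87.0%. The WT share lay within the counting error of the first comparison and below the second, and the DKO share lay below both. Of the WT members 89 (13.8%) had a DKO member as partner, and of the DKO members 92 (32.3%) had a WT member. These doubly high positions were mostly promoters, with 86.5% of the WT and 87.0% of the DKO partners there, median CpG counts of 41 and 40 and the GATA motif in 38.2% and 35.9%.

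The unshared members of the lists were of different kinds. The 97 WT members with no DKO peak held a median of 10 CpG, carried the GATA motif in 71.1% and lay at promoters in 33.0% of cases. The 116 DKO members with no WT peak held a median of 41 CpG, carried the motif in 22.4% and lay at promoters in 81.03%. The unshared WT members were less often at promoters than WT members as a whole (46.5%). The unshared DKO members were close to the DKO members as a whole (85.6%). Median enrichment was 3.45 in unshared WT and 3.39 in unshared DKO members, near the limit of 3. Members with a member as partner had 3.85 in WT and 4.04 in DKO. A position with high signal in both cell types can miss this limit, so an unshared member need not lack signal in the other genotype.

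Among shared WT members, the DKO background was lower in 279 of 281 distal pairs and in 246 of 269 promoter pairs (99.3% and 91.4%). The same count over all shared WT peaks gave 82.1% of distal and 63.8% of promoter pairs. The median ratio of DKO to WT background was 0.31 in distal pairs and 0.63 in promoter pairs, and the ratio of heights was 0.51 and 0.80. How heights were scaled between libraries is not given in the sources used here, the study mapped more reads for DKO than for WT Flk1(+) cells, and WT members were chosen for a high WT background, so these ratios are read beside others. Over all shared WT peaks the background ratio was 0.58 in distal and 0.85 in promoter pairs, with height ratios of 0.69 and 0.95, and over tall low-background WT peaks the background ratio was 0.51 and 0.78. Distal pairs had the lower ratio in every one of these 3 sets. For DKO members, chosen for a high DKO background, the median background ratio was 1.10 in 150 promoter pairs and 0.99 in 19 distal pairs.

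**Figure D5:**
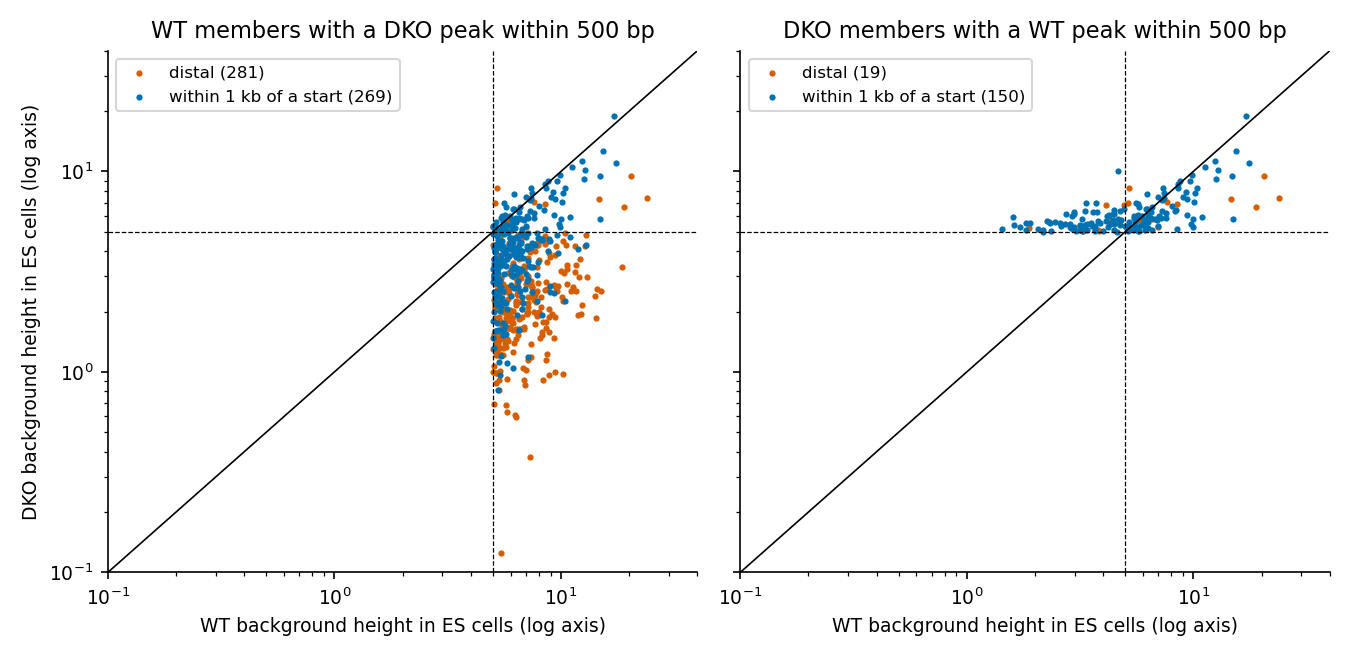
DKO against WT background height in ES cells, on log axes, for WT members with a DKO peak within 500 bp (left) and DKO members with a WT peak within 500 bp (right), coloured by place. The solid line marks equal values and the dashed lines the threshold of 5. On the left, 279 of 281 distal pairs and 246 of 269 promoter pairs lie below the line of equal values, in a set chosen for high WT background. Of all shared WT peaks 82.1% of distal and 63.8% of promoter pairs do.

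Among the pairs that were members in both lists, the DKO height exceeded the WT height most at the promoters of *Zfp827* (44.1 against 22.6), *Wrb* (36.7 against 23.8) and *Ttk*, and at a CpG-rich position 55726 bp upstream of *Ezh2* (23.9 against 18.0). It was lowest relative to WT at a GATA-bearing peak 23877 bp upstream of *Kdm6b*, a histone demethylase gene (25.7 against 63.8). The promoters of *Scrn2* (18.7 against 44.1), *Gpx4* (22.3 against 49.1) and *Rnasek* (26.8 against 56.0) followed. The 4 pairs that were relatively high in DKO held no AGATAA or TGATAA, and the 4 that were low in DKO each held at least 1 match. Over all such pairs the motif was present in 38.2% of WT and 35.9% of DKO windows, so most pairs lacked it. The named pairs are the extremes of the ratio, and a link of motif and ratio was not tested.

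Members were unevenly spread over the chromosomes. In WT, chromosome 8 held 110 members among 1365 peaks (8.06%). Chromosome 11 held 95 among 2329 (4.08%) and chromosome 17 held 31 among 769 (4.03%), and the autosomes other than 8 and 11 together held 2.69%. Counted over peaks of height 15 or more, 34.1% on chromosome 8 were members, followed by 30.8% on chromosome 12 and 30.7% on chromosome 17, with 26.8% on chromosome 11. At WT promoters on chromosome 8 the median background was 3.12 and the median height 11.98, while those on the other autosomes had 2.10 and 8.26, and 22.1% of these promoter peaks were members against 4.25%. In DKO, chromosome 11 held 66 members among 2316 peaks (2.85%) and chromosome 8 held 46 among 2108 (2.18%), against 0.958% over the other autosomes. Counted over DKO peaks of height 15 or more, the shares were 31.7% on chromosome 11 and 31.6% on chromosome 19. On chromosome 8 it was 22.2%, nearer to the 18.3% over the autosomes other than 8 and 11. Median promoter backgrounds in DKO were 2.14 on chromosome 11, 2.05 on chromosome 8 and 1.81 on the other autosomes. Median promoter heights in DKO were 8.34 on chromosome 11, 8.34 on chromosome 8 and 7.40 on the other autosomes. Heights and backgrounds at promoters on chromosome 8 were thus higher together in both lists, by more in WT, and the cause was not tested. Chromosome X held no member among 337 WT and 246 DKO peaks, which allows shares of up to 0.890% and 1.22% for counting error. Its highest backgrounds were 4.30 and 3.68. Only 20 WT and 3 DKO peaks on chromosome X had a height of 15 or more, as every member had. In DKO the lack of a member there thus says little.

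The largest value of the WT list was a single peak on chromosome M, with a height of 816 over a background of 269 and an enrichment of 3.03. By annotation its position, 15359, lies in the tRNA gene *mt-Tp*, and its window held 3 GATA matches and 2 CpG. Chromosome M had no peak in the DKO list. Mitochondrial DNA is present in many copies per cell, and no statement about binding is drawn from this peak.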

How the data were processed

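Per the labels and the methods of the study, the authors sequenced ChIP libraries and called peaks with DNAnexus (kernel density bandwidth 30, candidate threshold 5, enrichment threshold 3, mapping ratio threshold 3) for WT Flk1(+) over WT ES and for DKO Flk1(+) over DKO ES. The submitters' processing notes name CASAVA 1.8.1, cutadapt and mm9. The aligner, the handling of duplicate reads, the depth of the ES libraries and the scaling of heights are not given in the sources used here, so the precision of single heights is unknown; the study mapped more reads for DKO than for WT Flk1(+) cells. The deposited columns hold signal (the peak height in the Flk1(+) and in the ES profile), their ratio (enrichment, with backgrounds below 1 taken as 1), the −log10 of a q-value, a rank score, the position and the genes within 5 kb. Lists were assigned to WT and DKO by how many peaks the study gives for either.

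The 23048 WT and 27966 DKO rows, repeated by gene, were reduced to peaks by peak number. Members had a background of 5 or more. The members, gene lists and comparisons were chosen with earlier results of these data known, and the G2 and mitosis list, the TTTGAA element and the split of chromosomes 8 and 11 were chosen after seeing the data. Windows were the deposited bases from 250 before to 250 after each position, checked against mm9. Protein-coding starts came from GENCODE vM1 (51723 transcripts of 22232 genes), a promoter being within 1 kb of a start. Peaks within 500 bp between lists were called shared. Motifs were searched on both strands, and flanks were windows 2 kb to either side. Shares have 95% Wilson intervals. With 1 library per group there was no test, and no p-value is given. Groups were taken from the labels. Named peaks were the 8 highest members of each list by background, the 4 highest by height, by enrichment and by height among those with a GATA motif, the 3 nearest the threshold on either side, the 4 highest without a peak of the other list, the 4 largest and 4 smallest DKO to WT height ratios among pairs of members, and up to 3 peaks per gene list; peaks of the G2 and mitosis list beyond these were named after their values were seen. A few peaks named by this rule are not reported here. Alternatives were other background, height and overlap limits, windows, motifs and distances. Scripts used Python 3.11.15, NumPy 2.4.6, pandas 2.3.3, SciPy 1.17.1, pysam 0.24.0 and Matplotlib 3.10.9 and were tested on simulated data.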

Additional observations from a re-analysis of the deposited data

How the results depend on the processing

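The number of members followed the background limit: in WT 1256 peaks reached 4, 371 reached 6 and 56 reached 10, and in DKO 729, 126 and 16 did. At a limit of 10 the WT members moved to 89.3% shared, 35.7% at promoters, 82.1% with a GATA motif and a median of 8.5 CpG, and the DKO members to 43.8%, 93.8% and 18.8%. With partners within 100 bp, 77.0% of WT and 42.5% of DKO members were shared, and within 250 bp 81.1% of WT members were. In the better-scoring 50% of each list the shares were 78.9% and 49.5%. Within 5 kb of a start lay 55.5% of WT and 89.5% of DKO members. Within 100 bp of the peak position the median CpG count was 7 and 18 and the GATA share 59.4% and 18.9%, and adding AGATAG and TGATAG gave 73.0% and 33.3%. The GATA share of WT members was 25.9 percentage points above the flanks and changed sign against tall low-background peaks, with a difference of -12.7 points. In DKO these differences were -16.3 and -27.0. A height limit of 20 for the comparison peaks left 829 in WT and 339 in DKO, with GATA shares of 87.6% and 67.6%, promoter shares of 13.0% and 34.8%, shared shares of 92.5% and 87.0%, and a DKO median of 10 CpG. Settings chosen after seeing the data gave 41.9% at promoters and 70.4% with a GATA motif for WT members of height 20 or more, a WT median of 12.5 CpG and 173 DKO members without chromosomes 8 and 11, and TTTGAA in 29.6% of WT and 25.4% of DKO whole promoter windows. Of 68 recomputed values 25 stayed within their spread. No paired analysis was possible because each group has 1 library, and for the same reason no library could be left out. The read depth of the ES libraries is not given in the sources used here, and the study mapped more reads for DKO than for WT Flk1(+) cells.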

Other observations

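The gene lists of the cell types of the study held no member, which is near what the share over all genes gives for lists of this size. No WT or DKO member lay within 5 kb of a start of 24 pluripotency genes, 15 mesoderm and heart genes or 11 endoderm genes, although a WT peak lay there at 6, 14 and 2 of them and a DKO peak at 6, 11 and 3. Of 8 genes of GATA factors and cofactors, *Zfpm1* alone had members, in WT. Of 81 cytosolic ribosomal protein genes 5 had a WT member and 1 a DKO member, *Rpl27*, whose promoter had 18.4 over 5.45 in WT and 20.9 over 5.87 in DKO. Of 67 clustered histone genes none had a WT member, and 1 DKO member, with a height of 31.8 over 6.08, lay within 5 kb of 3 of them, *Hist1h2af*, *Hist1h3g* and *Hist1h4h*. Among 77 genes of RNA polymerase subunits and splicing factors 5 had a WT and 3 a DKO member, and *Srsf1*, a splicing factor, had both, with 35.1 over 6.53 in WT and 31.1 over 5.88 in DKO. Of 75 heat shock and DnaJ genes 1 had a WT member, *Dnajb6*, and 3 had a DKO member, *Dnajc30*, *Hsp90b1* and *Hspa4*. Over all genes 1.96% had a WT member and 1.42% a DKO member within that distance.

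Other promoter elements were also counted in the whole windows of promoter members, on both strands. TGACGTCA, the site of CREB factors, was found in 7.31% of WT and 10.7% of DKO promoter members, 4.79% and 5.35% of tall low-background promoters, 3.49% and 3.29% of all promoter peaks, and 1.46% and 2.19% of all peak windows. AAGATGGC, the core of the YY1 site, was found in 12.3% and 9.84% of promoter members, 6.54% and 7.56% of tall low-background promoters, 6.55% and 6.67% of all promoter peaks, and 3.43% and 4.46% of all peak windows. CCGGAA, the core of ETS sites, was found in 35.5% and 43.0% of promoter members, 40.7% and 43.4% of tall low-background promoters and 35.1% and 37.4% of all promoter peaks, and in 14.7% and 24.3% of all peak windows. Starts on both strands lay within 1 kb of 18.9% of promoter members in either list, against 14.6% and 19.2% of tall low-background promoters in WT and DKO and 13.2% of all WT and 13.9% of all DKO promoter peaks. More than 50% of the window was soft-masked repeat sequence in 45 WT members, 44 of them distal, and in 1 DKO member. That is 6.96% of WT and 0.351% of DKO members, against 10.4% and 6.97% of all peaks.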
